A study of Mus musculus with 6 samples.

Results

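The subject is a set of 84 nuclear genes for the enzyme complexes of oxidative phosphorylation, compared between leukemia cells from cytarabine-treated and control mice. Members were taken from the 23284 gene symbols of the deposited tables by name: the Nduf genes of complex I, Sdha to Sdhd of complex II, the Uqcr genes and Cyc1 of complex III, the Cox5 to Cox8 genes of complex IV, and the Atp5 genes of complex V. The rule uses no measured value. Complex I had 38 members, complex II 4, complex III 9, complex IV 16 and complex V 17. A total of 80 members reached a mean of 1 FPKM (fragments mapped to a gene, scaled to transcript length and library size) over the libraries and entered the test, which covered 11703 genes. The 4 that did not were Ndufa4l2, Cox8b, Cox7b2 and Cox8c, and the last pair were listed at 0 in all 6 libraries.

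Oxidative phosphorylation takes place at the inner mitochondrial membrane. Complexes I and II feed electrons from NADH and succinate into the respiratory chain, complexes III and IV pass them to oxygen, complexes I, III and IV pump protons, and complex V uses the proton gradient to make ATP. A few catalytic subunits are encoded by mitochondrial DNA, and the other subunits are transcribed in the nucleus and imported. Leukemia cells that persist after cytarabine, a nucleoside analog that blocks DNA synthesis, have been studied for their dependence on this pathway. The 13 mitochondrially encoded subunits were not analysed here.

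The cells were C1498, a murine acute myeloid leukemia line carrying EGFP from a retroviral vector and grown from 1 single-cell clone. They were injected intravenously into female C57BL/6J mice, stated to be 8 to 10 weeks old in general, and were sorted as GFP+ CD49b+ cells from the femur, tibia and pelvis marrow of each mouse on day 21. RNA came from 3 cytarabine-treated mice and 3 control mice, 1 library per mouse. The labels call the controls both PBS and untreated. For imaging, cytarabine was given on days 19 and 20, and the sources used here state no separate schedule for the RNA mice. Each group is therefore one clone in one host strain, and fewer cells of a kind cannot be told apart from less RNA per cell. The libraries are called cytarabine 1 to 3 and control 1 to 3, and values are listed in that order.

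The steps of the lowest FPKM values put the mapped reads at 11490000 to 18870000 per library. Transcripts of other tissues moved across the libraries. The summed FPKM of 10 heart genes ranged from 8.193 to 816 FPKM with cytarabine and from 63.01 to 3121 FPKM in controls, and that of 9 colon epithelial genes from 273 to 3951 FPKM and from 21.68 to 1811 FPKM. Colon transcripts were high in cytarabine 2, cytarabine 3 and control 1, the same libraries that had the most transcripts of 5 smooth muscle genes. The 8 neutrophil genes summed to 1433, 198.8 and 188.8 FPKM with cytarabine and to 1438, 2043 and 2004 FPKM in controls, and 7 of the 8 were lower with cytarabine at an unadjusted p under 0.05. The 3 erythroid genes present summed to 101.3, 13.5 and 18.23 FPKM with cytarabine and to 18.36, 25.72 and 15.94 FPKM in controls, highest in cytarabine 1. No defining gene of these lists was at 0 throughout. The 4 leukocyte and gate genes, Ptprc, Cd3e, Lck and Itga2 (CD49b), were present in every library at a sum of 498.1 to 698.3 FPKM. Itga2 itself was a small part of that sum and was lower with cytarabine without overlap, at 8.11, 7.79 and 7.88 against 10.6, 13.3 and 12.8 FPKM.

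The members were among the more abundant transcripts of the sorted cells. The median of their mean levels was 182 FPKM, against 14.1 FPKM for all tested genes, and 63 of the 80 (78.8%) lay at 100 FPKM or more, a level that 8.3% of all tested genes reached. The median level was 140 FPKM for complex I, 123 FPKM for complex II, 271 FPKM for complex III, 370 FPKM for complex IV and 347 FPKM for complex V. The 84 members made up 3.06%, 3.45% and 3.43% of all FPKM in the cytarabine libraries and 2.99%, 2.95% and 2.81% in the control libraries. All 3 cytarabine shares were above the control shares, with cytarabine 1 close to control 1. For complex IV the shares were 0.675%, 0.811% and 0.798% with cytarabine and 0.648%, 0.634% and 0.601% in controls.

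To ask whether cytarabine exposure went with other levels of these genes, limma with a mean-dependent variance was fitted to log2(FPKM + 1) of every tested gene. No member passed at an adjusted p under 0.05 (Benjamini-Hochberg over all tested genes), and neither did any of the 11703 genes (0%), whose smallest adjusted p was 0.0551 by limma. The words higher and lower below therefore describe values and the unadjusted limma test, and no member is called changed. At an unadjusted p under 0.05, 19 of the 80 tested members (23.8%) were higher with cytarabine, against 7.6% of all tested genes, and 2 (2.5%), Cox6a2 and Atp5g2, were lower, against 9.81%. In 18 members the lowest cytarabine value lay above the highest control value, against 10.9% of all tested genes, and in 2 the highest cytarabine value lay below the lowest control value, against 12.9%. The log2 difference was above 0 for 60 of the 80 members and its median was 0.125, against -0.002 over all tested genes. Differences were small: the 19 higher members lay between 0.18 (Atp5h) and 0.52 (Ndufc1) on the log2 scale.

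**Figure D1:**
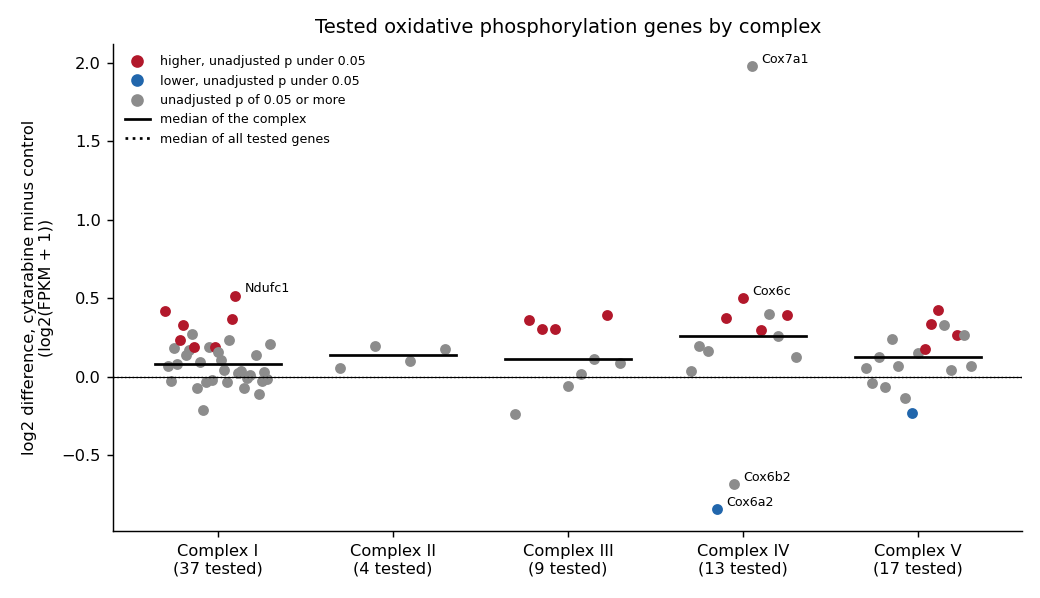
Log2 difference of log2(FPKM + 1), cytarabine minus control, for the tested members of each complex, 1 point per gene, without Ndufs5, whose values are listed near 0 in 3 libraries. Red and blue points have an unadjusted limma p under 0.05, black bars are the complex medians (0.079, 0.137, 0.111, 0.261 and 0.127 for complexes I to V) and the dotted line is the median of all tested genes (-0.002).

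The excess of higher values was not carried equally by the libraries. The median deviation of the 80 members from each gene's mean over the 6 libraries was -0.040, 0.115 and 0.088 on the log2 scale in cytarabine 1, 2 and 3, and -0.031, -0.068 and -0.090 in control 1, 2 and 3. Cytarabine 1 thus lay at the level of control 1 by this measure. Cytarabine 2 held the highest value of 39 members and cytarabine 3 of 14, whereas control 3 held the lowest value of 26 and control 2 of 18. The same count was not made over all tested genes, so it is not read as particular to the members. Without cytarabine 1, 34 members were higher at an unadjusted p under 0.05 while the share of all tested genes that were higher was 17.3%. Without cytarabine 2 and without control 3 the number was 11, beside shares of 5.23% and 5.08% of all tested genes. The median spread of the members within groups was an SD of 0.111 on the log2 scale, against 0.151 for all tested genes.

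**Figure D2:**
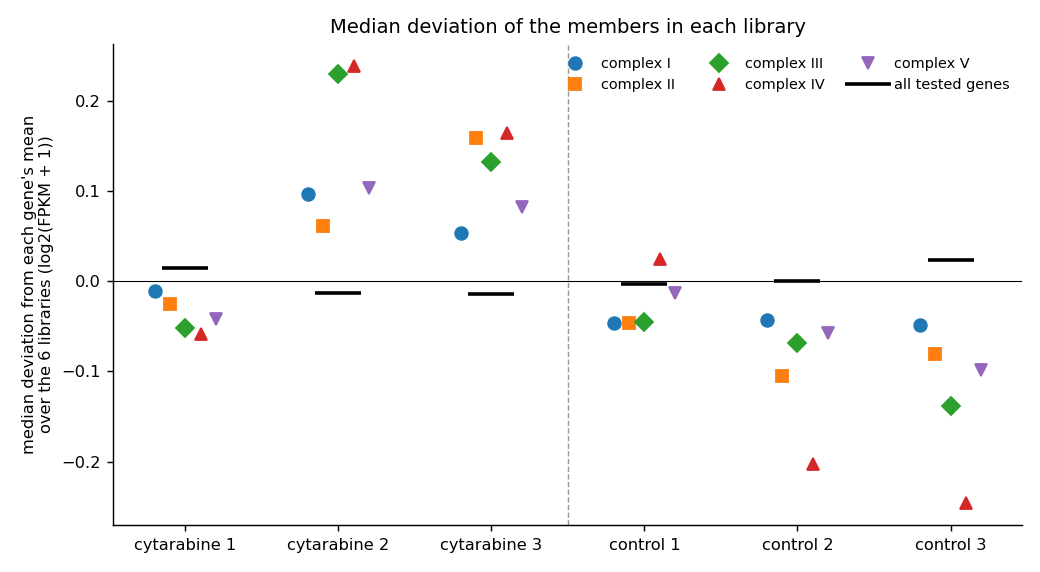
Median deviation of the tested members of each complex from the gene mean over the 6 libraries, on the log2(FPKM + 1) scale, by library, with the median of all tested genes as a black bar. The medians of every complex are above 0 in cytarabine 2 and 3, and complex IV spans the most, from -0.246 in control 3 to 0.239 in cytarabine 2.

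The libraries with the highest member levels with cytarabine, cytarabine 2 and 3, were also those with the most colon transcripts and the fewest neutrophil transcripts. When cytarabine 1 was set against control 2 and 3, which all had little colon transcript, the median log2 difference of the members was 0.032 (all tested genes 0.007). When cytarabine 2 and 3 were set against control 1, which all had much, the median was 0.15 (all tested genes 0.006). Each subset has 1 library in one of its groups, so these medians carry no error and are given as a description. With a colon gene score in the fit, 12 of the 80 members were higher and 3 lower at an unadjusted p under 0.05, beside 8.14% and 7.15% of all tested genes, with a median of 0.056. A score of the neutrophil genes left 3 higher and 4 lower, beside 7.65% and 4.99% of all tested genes, with a median of -0.046. With the planned colon and heart scores together, 3 were higher and 1 lower, beside 2.54% and 2.26%, with a median of 0.015, in a fit with few degrees of freedom left. The neutrophil score was 5.758, 3.599 and 3.547 with cytarabine and 6.229, 6.824 and 6.812 in controls. All cytarabine scores were below all control scores, and cytarabine 1 was closest to control 1. Cytarabine and the neutrophil transcript level could thus be told apart only through cytarabine 1, and poorly. Libraries with little and with much colon transcript stood in both groups, though unevenly. The part of colon and neutrophil transcripts in the member levels was not tested.

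The members are short transcripts, with a median length of 746 bases against 2549 bases for all tested genes. All 21 members with an unadjusted p under 0.05 were among the 61 members in the shortest of 5 equal bins of transcript length (71 to 1394 bases), of which 31.1% were higher and 3.28% lower, with a median log2 difference of 0.176. In the same bin 9.34% of the 2260 other genes were higher and 7.35% lower, with a median of 0.041. None of the 13 members in the next bin or the 6 members in the middle one had an unadjusted p under 0.05, and their medians were 0.032 and 0.009. Across the 80 members, Spearman's rho between log2 difference and length was -0.43, and across 11593 tested genes with a length it was -0.09 (genes of the same libraries are not independent, so no p is given). After each library was centred within the length bins, 18 members were higher and 2 lower, beside 8.63% and 10.3% of all tested genes, with a median of 0.091. With a loess on length removed from each library, 14 were higher and 2 lower, beside 9.19% and 10.6%, with a median of 0.092. When each library was instead centred on the median level of its length bin, 11 were higher and 4 lower, beside 5.6% and 10.9%, and the median was 0.011, with -0.023 for complex I. The median of all tested genes was 0.008 after centring within bins, 0.015 after the loess and -0.048 after centring on median levels. Length thus moved with the differences among the members, and its part in them was not tested.

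**Figure D3:**
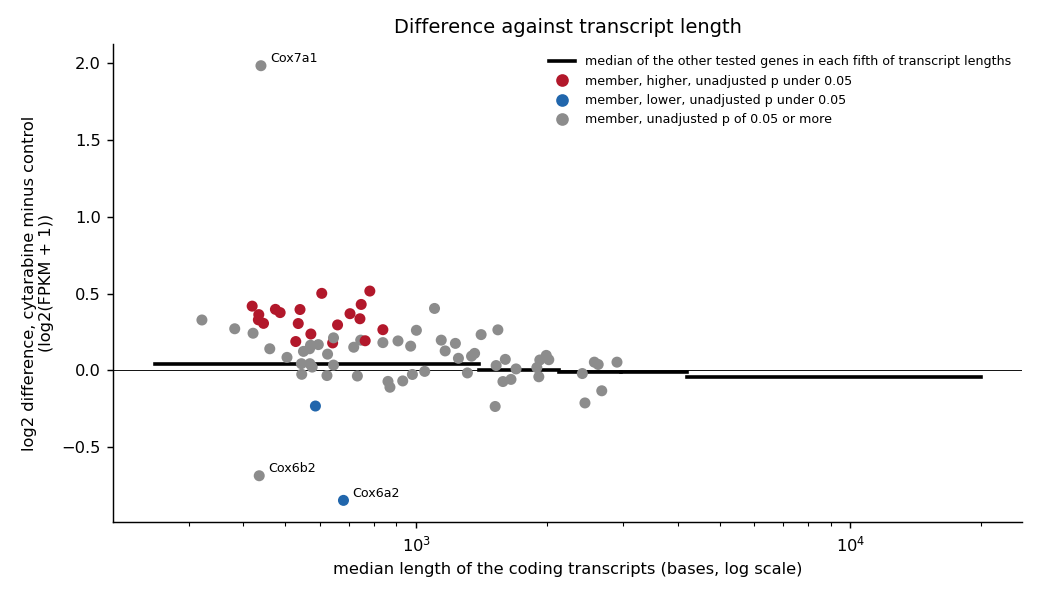
Log2 difference (cytarabine minus control, log2(FPKM + 1)) of the tested members, without Ndufs5, against the median length of their coding transcripts on a log axis; black bars are medians of the other tested genes in each of 5 length bins. All red and blue points (unadjusted limma p under 0.05) lie in the shortest bin, up to 1394 bases, where the other genes have a median of 0.041.

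Many promoters of these genes carry sites for the nuclear factors NRF1, GABP (an ETS factor) and YY1, which are known regulators of respiratory genes. The RefSeq promoter windows (GRCm38.p6, each around an annotated start) held 68 of the 84 members in 74 windows. Both strands were searched for exact cores. The NRF1 core GCGCATGC stood in 13.5% of the member windows, 5.28% of the windows of tested genes and 2.71% of all windows. The ETS core CCGGAAG stood in 21.6%, 17.7% and 8.86%, and the YY1 core AAGATGGC in 14.9%, 4.36% and 2.75%. Any of these 3 cores was found in 41.9% of member windows, 24.9% of windows of tested genes and 13.3% of all windows, and in 8 of the 17 windows of the higher members. The TATAAA box was in 10.8% of member windows, 7.52% of the windows of tested genes and 13.6% of all windows.

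The 150 bases before the RefSeq start are shown for 1 member of each complex. It is the member with the smallest p that has a single window and 1 of the 3 cores in this stretch. The stretches hold no YY1 core, and they include members that were neither higher nor lower. They are read 5′ to 3′ on the minus strand of GRCm38.p6, with the core in capitals: for Ndufa6 chr15:82354292-82354441 (NRF1), for Sdhd chr9:50603850-50603999 (ETS), for Uqcr11 chr10:80406822-80406971 (ETS), for Cox6b1 chr7:30626115-30626264 (ETS) and for Atp5g2 chr15:102671048-102671197 (NRF1 on both strands, overlapping).
Ndufa6: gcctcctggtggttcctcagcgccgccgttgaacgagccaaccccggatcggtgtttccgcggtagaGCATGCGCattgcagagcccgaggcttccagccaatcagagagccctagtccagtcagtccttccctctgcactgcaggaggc
Sdhd: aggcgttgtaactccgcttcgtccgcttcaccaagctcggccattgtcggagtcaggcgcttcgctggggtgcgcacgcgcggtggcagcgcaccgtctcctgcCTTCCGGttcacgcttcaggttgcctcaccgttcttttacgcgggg
Uqcr11: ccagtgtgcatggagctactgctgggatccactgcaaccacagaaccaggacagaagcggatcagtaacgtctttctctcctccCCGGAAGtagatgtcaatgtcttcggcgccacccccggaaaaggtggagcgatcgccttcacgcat
Cox6b1: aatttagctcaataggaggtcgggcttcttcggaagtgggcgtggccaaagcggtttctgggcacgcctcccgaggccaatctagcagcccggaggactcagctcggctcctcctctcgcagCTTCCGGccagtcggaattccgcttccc
Atp5g2: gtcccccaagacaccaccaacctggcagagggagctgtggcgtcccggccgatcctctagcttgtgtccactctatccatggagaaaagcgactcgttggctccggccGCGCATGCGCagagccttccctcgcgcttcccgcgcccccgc
GENCODE transcripts of Ndufa6, Uqcr11, Cox6b1 and Atp5g2 also begin upstream of the RefSeq start. The whole window of Uqcr11 also holds an NRF1 core. Uqcr11 and Cox6b1 were higher with cytarabine, Atp5g2 was lower, and Ndufa6 and Sdhd had no unadjusted p under 0.05. A core in these windows is a match of letters, and binding was not measured.

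Complex I takes electrons from NADH. Of its 37 tested members, 7 (18.9%) were higher at an unadjusted p under 0.05 and none was lower, with a median log2 difference of 0.079. Among all tested genes 7.6% were higher and 9.81% lower. Among the other genes of the shortest length bin 9.34% were higher and 7.35% lower. Ndufc1, an accessory subunit, was at 141, 152 and 142 FPKM in the cytarabine libraries and 90.7, 121 and 93.6 FPKM in the control libraries. The groups did not overlap, and the log2 difference was 0.52 (SE 0.12), the largest of the complex, with an adjusted p of 0.166 by limma. Ndufa3, another accessory subunit, was at 305, 367 and 321 FPKM in the cytarabine libraries and 266, 272 and 251 FPKM in the control libraries, and Ndufa7 at 223, 219.8 and 215 FPKM in the cytarabine libraries and 193, 196 and 188 FPKM in the control libraries. In both genes all cytarabine libraries lay above all control libraries, and the log2 differences were 0.33 (SE 0.084) and 0.19 (SE 0.049), with adjusted p of 0.178 and 0.181 by limma. The other 4 higher genes, Ndufa1, Ndufb3, Ndufa2 and Ndufb9, are also accessory subunits, and their log2 differences ranged from 0.19 to 0.42. For Ndufb9 cytarabine 1 fell within the control range at 138, 178 and 186 against 143, 129 and 114 FPKM.

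The 7 core subunits, which hold the flavin and iron-sulfur centers that carry electrons, are set apart here from the accessory ones. None of the 7 had an unadjusted p under 0.05, 5 of 7 had a negative log2 difference, and the median was -0.016, against 0.141 over the 30 tested accessory members. Their transcripts were also longer, with a median of 1312 bases against 674.5 bases, and the difference between the sets was not tested. Ndufs7, an iron-sulfur core subunit, was at 89.2, 101 and 87.5 FPKM in the cytarabine libraries and 94.0, 101 and 104 FPKM in the control libraries, with a log2 difference of -0.11 (SE 0.079). The groups overlapped. The most negative value of the complex was that of Ndufab1, the mitochondrial acyl carrier protein, at 98.1, 95.6 and 102 FPKM in the cytarabine libraries and 135, 101 and 109 FPKM in the control libraries. There control 1 stood above the rest, control 2 was within the cytarabine range, and the log2 difference was -0.21 (SE 0.11).

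Ndufa4, a small protein that associates with complex IV despite its name, was the most abundant Nduf gene at 524, 523 and 495 FPKM in the cytarabine libraries and 449, 456 and 494 FPKM in the control libraries. All cytarabine libraries lay above all control libraries, cytarabine 3 by a margin of less than 1 FPKM, with a log2 difference of 0.14 (SE 0.061). Its paralog Ndufa4l2, a hypoxia-responsive gene, stayed between 0 and 0.638 FPKM. Ndufs5 was listed at 0.00201, 49.1 and 0.00152 FPKM in the cytarabine libraries and 5.57, 0.00236 and 9.03 FPKM in the control libraries. For a subunit that every cell uses, a listing near 0 in 3 libraries is not read as a level, no fold is given, and the member median without it was 0.127.

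Complex II, succinate dehydrogenase, also belongs to the citrate cycle. None of its 4 members had an unadjusted p under 0.05, all 4 log2 differences were above 0, and their median was 0.137. Sdha, the flavoprotein subunit, was at 116, 118 and 125 FPKM in the cytarabine libraries and 122, 110.0 and 114 FPKM in the control libraries, and Sdhb, the iron-sulfur subunit, at 119.6, 146 and 147 FPKM in the cytarabine libraries and 119, 118 and 121 FPKM in the control libraries. For Sdhb cytarabine 2 and 3 were above the control range and cytarabine 1 within it, Sdha overlapped, and the log2 differences were 0.054 (SE 0.063) and 0.20 (SE 0.093). Sdhc and Sdhd anchor the enzyme in the membrane, and they were at 83.8, 84.7 and 91.0 against 74.8, 89.1 and 78.8 FPKM and 180.2, 198 and 211 against 185, 164 and 171 FPKM, with log2 differences of 0.098 (SE 0.083) and 0.18 (SE 0.083). The adjusted p of the 4 genes ranged from 0.326 (Sdhb) to 0.633 (Sdha) by limma.

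Complex III passes electrons from ubiquinol to cytochrome c. Of its 9 members 4 (44.4%), all small subunits, were higher at an unadjusted p under 0.05 and none was lower. The shares of all tested genes were 7.6% and 9.81%. The median log2 difference of the complex was 0.111. The core proteins, the Rieske protein and cytochrome c1 were not among them, and the difference between the small subunits and these was not tested. Uqcr11 was at 310.3, 341 and 319 FPKM in the cytarabine libraries and 253, 277 and 255 FPKM in the control libraries. Uqcrh, the hinge protein, was the most abundant gene of the complex at 631, 723 and 747 FPKM in the cytarabine libraries and 566, 501 and 526 FPKM in the control libraries. In both genes the groups did not overlap, with log2 differences of 0.31 (SE 0.067) and 0.40 (SE 0.087) and adjusted p of 0.153 and 0.154 by limma. Uqcr10 was at 357, 465 and 412 against 334, 339 and 284 FPKM and Uqcrb at 255, 315 and 332 against 260.3, 235 and 230.4 FPKM. Uqcrb overlapped at cytarabine 1, Uqcr10 did not overlap, and the log2 differences were 0.36 (SE 0.12) and 0.30 (SE 0.12).

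Cyc1, cytochrome c1, went the other way in value, at 162, 143 and 167 FPKM in the cytarabine libraries and 217, 177 and 164 FPKM in the control libraries. Cytarabine 3 was above control 3, so the groups overlapped, and the log2 difference was -0.23 (SE 0.12) with an adjusted p of 0.357 by limma. Uqcrc1 and Uqcrc2, the core proteins, had log2 differences of -0.058 (SE 0.059) and 0.019 (SE 0.099), and Uqcrfs1, the Rieske iron-sulfur protein, 0.11 (SE 0.087). These 4 genes have transcripts of 1363 to 1896 bases, while the other 5 have 434 to 535 bases. The remaining small subunit, Uqcrq, had 0.085 (SE 0.096).

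Complex IV, cytochrome c oxidase, reduces oxygen to water. Of its 13 tested members, 4 (30.8%) were higher and 1 (7.69%) was lower at an unadjusted p under 0.05, beside 7.6% and 9.81% of all tested genes. The median log2 difference was 0.261. That median was 0.024 with the colon and heart scores in the fit (0.031, 0.082, 0.031 and -0.029 for complexes I, II, III and V) and -0.118 with the neutrophil score. Cox6c was at 523, 686 and 648 FPKM in the cytarabine libraries and 440.1, 436 and 426 FPKM in the control libraries. All cytarabine libraries were above all controls, with a log2 difference of 0.50 (SE 0.11) and an adjusted p of 0.153 by limma. Cox6b1, which links the monomers of the dimeric enzyme, was at 554, 639 and 665 FPKM in the cytarabine libraries and 535, 461 and 436 FPKM in the control libraries, and Cox7c at 351, 474 and 438 FPKM in the cytarabine libraries and 365, 295 and 297 FPKM in the control libraries. Cox6b1 did not overlap, cytarabine 1 was below control 1 for Cox7c, and the log2 differences were 0.38 (SE 0.11) and 0.40 (SE 0.14). Cox7a2 was at 280.4, 342 and 315 against 286, 240.4 and 237 FPKM, with a log2 difference of 0.30 (SE 0.11), and again cytarabine 1 lay below control 1. Cox5b, the most abundant gene of the complex, was at 847, 908 and 781 against 623, 786 and 813 FPKM and overlapped.

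Several complex IV subunits have a widely expressed form and a form that is typical of heart and skeletal muscle or of other tissues. Cox6a2, the muscle form of subunit VIa, was lower with cytarabine, at 11.3, 14.2 and 16.0 FPKM in the cytarabine libraries and 21.4, 24.2 and 31.6 FPKM in the control libraries. The groups did not overlap, the log2 difference was -0.84 (SE 0.18) with a 95% interval of -1.29 to -0.39, and the adjusted p was 0.153 by limma. The heart gene sum was 63.01 FPKM in control 3, where Cox6a2 was highest, and 3121 FPKM in control 1, and the part of heart tissue in its level was not tested. The widely expressed form Cox6a1 was at 524, 617 and 571 against 474, 550.0 and 503 FPKM, and Cox6a2 made up 2.36% ± 0.325 of the pair with cytarabine and 4.82% ± 0.949 in controls (SD, n = 3 each), without overlap.

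Cox7a1, the muscle form of subunit VIIa, had the largest difference of all members, at 10.1, 40.5 and 47.1 FPKM in the cytarabine libraries and 18.1, 4.06 and 2.73 FPKM in the control libraries. The groups overlapped. From cytarabine 3, cytarabine 2 and control 1 down to control 3, its order over the 6 libraries was that of the colon gene sums, and the part of colon tissue in its level was not tested. The log2 difference was 1.98 (SE 0.82) with an adjusted p of 0.292 by limma, and with the colon score in the fit it was 0.41. Cox8b, a muscle form, was listed at 0, 1.35 and 0.959 FPKM in the cytarabine libraries and 0, 3.62 and 0 FPKM in the control libraries, and Cox8a at 592, 709 and 659.8 against 638, 576 and 583 FPKM. Cox6b2, a testis form, was at 0.601, 0.624 and 0.295 against 1.94, 2.54 and 0.342 FPKM. At its transcript length 3 reads are worth 0.674 to 1.11 FPKM, assuming 200-base fragments, and 4 of the 6 values, all but control 1 and 2, lie below that. Cox7b was at 174, 231 and 224 against 193, 165 and 164 FPKM with a log2 difference of 0.26 (SE 0.13), while Cox7b2 was listed at 0. Cox7a2l, which the rule matched although it is a supercomplex factor rather than a subunit, was at 91.5, 155 and 141 against 102, 91.2 and 92.1 FPKM, high in cytarabine 2 and 3 alone.

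**Figure D4:**
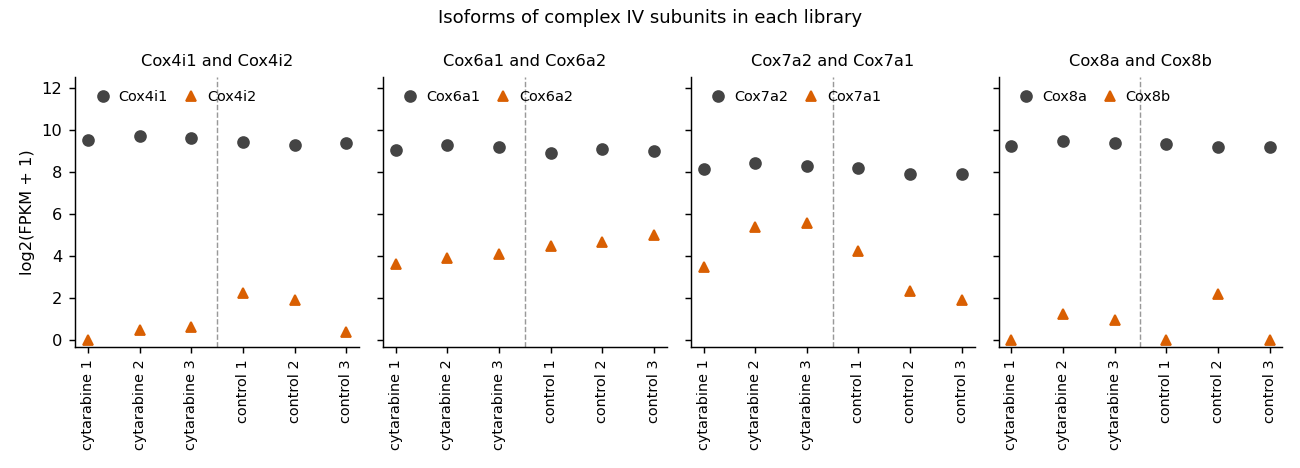
Levels of 4 pairs of complex IV isoforms in each library, as log2(FPKM + 1), with the widely expressed form as circles and the other form as triangles; the dashed line separates cytarabine from control libraries. The 3 cytarabine values of Cox6a2 are below its 3 control values, Cox7a1 is highest in cytarabine 2 and 3, and Cox4i2 and Cox8b stay far below their widely expressed forms, at up to 3.77 FPKM (Cox4i2, control 1) and 3.62 FPKM (Cox8b, control 2).

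Complex V, ATP synthase, has a catalytic head in the matrix, a stalk that holds it and a membrane ring of c subunits that turns. Its 17 members gave 4 higher (23.5%) and 1 lower (5.88%) genes at an unadjusted p under 0.05, beside 7.6% and 9.81% of all tested genes. Their median log2 difference was 0.127. Atp5j, coupling factor 6 of the peripheral stalk, had the smallest p of all members, at 368, 370.3 and 354 FPKM in the cytarabine libraries and 304, 274 and 287 FPKM in the control libraries. The lowest cytarabine library was well above the highest control, and the log2 difference was 0.34 (SE 0.059) with a 95% interval of 0.19 to 0.48 and an adjusted p of 0.136 by limma. Atp5o, the stalk subunit that binds the head, was at 345, 426 and 366 against 318, 309 and 315 FPKM, and Atp5h, stalk subunit d, at 509.5, 586 and 548 against 498, 469.9 and 482 FPKM. Neither overlapped, and the log2 differences were 0.27 (SE 0.087) and 0.18 (SE 0.069). The last stalk gene, Atp5f1 for subunit b, was at 219, 231 and 239 against 219, 227 and 209 FPKM and overlapped, with 0.072 (SE 0.062). Atp5j2, membrane subunit f, was between 217 and 288 FPKM with cytarabine and between 163 and 200.3 FPKM in controls, with a log2 difference of 0.43 (SE 0.13).

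The 5 genes of the catalytic head had a median log2 difference of 0.054 and none had an unadjusted p under 0.05. Atp5b, the catalytic beta subunit, was the most abundant of all members at 1101, 1142 and 1110.0 FPKM in the cytarabine libraries and 1201, 1122 and 1127 FPKM in the control libraries. Its groups overlapped, with a log2 difference of -0.041 (SE 0.055). Atp5a1, the alpha subunit, had 0.054 (SE 0.054), Atp5c1, the gamma subunit of the central shaft, 0.13 (SE 0.054), and Atp5d, the delta subunit, -0.068 (SE 0.085). For Atp5c1 all cytarabine libraries lay above all controls, at 477, 510.3 and 503 against 463, 442 and 459 FPKM.

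The c subunit is made from 3 genes that encode one mature protein with different import sequences. Atp5g2 was lower with cytarabine, at 341, 329 and 306 FPKM in the cytarabine libraries and 360.0, 395 and 389.8 FPKM in the control libraries, with no overlap. The log2 difference was -0.23 (SE 0.068), with an adjusted p of 0.199 by limma. Atp5g1 was at 175, 175 and 195 against 205, 193 and 199 FPKM and Atp5g3 at 1044, 956 and 991 against 977, 908 and 813 FPKM, with log2 differences of -0.13 (SE 0.065) and 0.15 (SE 0.084), and both overlapped. As a share of the 3 genes, Atp5g3 made up 66.3% ± 0.727 with cytarabine and 60.7% ± 2.69 in controls, and Atp5g2 21.6% ± 1.01 and 25.9% ± 2.27 (SD, n = 3 each). Neither share overlapped between the groups. Atp5s and Atp5sl, matched by name though they are not subunits, were low, with means of 2.67 and 11.9 FPKM over the 6 libraries.

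Other genes of the pathway were read from the same fit, as counts at an unadjusted p under 0.05 beside the 7.6% higher and 9.81% lower of all tested genes. Of 5 subunits or regulators that the name rule missed, 4 were higher: Cox4i1, 2010107E04Rik (a small membrane subunit of complex V), Usmg5 and the ATP synthase inhibitor Atpif1. Cox4i1, the main form of subunit IV, was at 722, 827 and 783 FPKM in the cytarabine libraries and 682, 619.6 and 656 FPKM in the control libraries, without overlap, with a log2 difference of 0.25 (SE 0.073). 2010107E04Rik was at 459, 577 and 521 against 424, 419.9 and 369.8 FPKM and Usmg5 at 718, 790.5 and 748 against 657, 608 and 534 FPKM, with log2 differences of 0.35 (SE 0.10) and 0.33 (SE 0.091). The lung form Cox4i2 was at 0, 0.406 and 0.574 against 3.77, 2.79 and 0.333 FPKM.

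Of 27 assembly factors in the table, which build the complexes without being part of them, 2 were higher (Sdhaf1 and Tmem126b) and 2 lower (Ecsit and Bcs1l), with a median log2 difference of 0.031. Ecsit, a complex I assembly factor that also acts in innate signaling, was at 39.0, 31.1 and 33.0 FPKM in the cytarabine libraries and 45.2, 49.8 and 50.3 FPKM in the control libraries, without overlap and with -0.49 (SE 0.10) on the log2 scale. Bcs1l, which inserts the Rieske protein into complex III, was at 18.2, 14.6 and 14.3 against 19.2, 21.0 and 20.7 FPKM, also without overlap, and Sdhaf1, which helps to build Sdhb, at 15.6, 17.5 and 15.5 against 13.9, 12.7 and 10.9 FPKM. None of the 10 tested electron carriers and ATP exporters and none of the 18 citrate cycle genes had an unadjusted p under 0.05, and their medians were 0.054 and -0.004. Among the carriers, Etfb was at 59.4, 89.3 and 89.0 against 69.6, 55.5 and 46.4 FPKM and Slc25a4, the muscle form of the ADP/ATP carrier, at 297, 268 and 333 against 442, 343 and 263 FPKM, highest in control 1.

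Of 15 tested regulators of mitochondrial gene expression and biogenesis, none was higher and 3 were lower, with a median of -0.066. Polrmt, the mitochondrial RNA polymerase, was at 11.1, 8.72 and 8.45 FPKM in the cytarabine libraries and 12.7, 13.7 and 13.8 FPKM in the control libraries. The groups did not overlap, and the log2 difference was -0.48 (SE 0.11). Tfb1m, which methylates mitochondrial ribosomal RNA, was at 14.9, 16.1 and 11.6 against 18.3, 20.3 and 18.5 FPKM and Myc at 33.4, 27.1 and 20.9 against 36.5, 35.6 and 48.5 FPKM, without overlap and with log2 differences of -0.41 (SE 0.13) and -0.56 (SE 0.20). The factors whose cores were searched above were at 21.5, 19.7 and 16.8 against 18.9, 22.3 and 23.3 FPKM (Nrf1), 33.5, 28.2 and 27.4 against 31.3, 30.6 and 34.9 FPKM (Gabpa) and 62.8, 64.9 and 61.6 against 58.4, 56.7 and 62.1 FPKM (Yy1). Their groups overlapped, and the log2 differences were -0.15 (SE 0.12), -0.12 (SE 0.10) and 0.094 (SE 0.060).

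**Figure D5:**
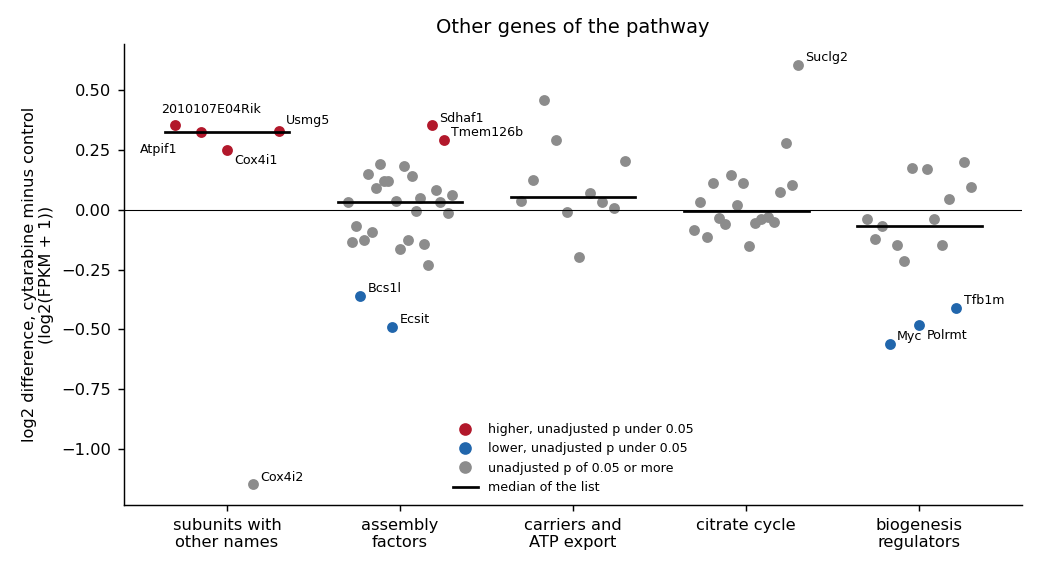
Log2 difference (cytarabine minus control, log2(FPKM + 1)) of the tested genes of 5 further lists of the pathway, 1 point per gene, with list medians as black bars. Red and blue points have an unadjusted limma p under 0.05: 4 of 5 subunits with other names are higher, and 3 of 15 biogenesis regulators are lower.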

How the data were processed

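RNA of sorted C1498 cells was sequenced from 3 mice given cytarabine and 3 controls, each as its own library (TruSeq stranded mRNA, 75-base single reads). According to the submitters' processing notes, reads were mapped to mm10 with TopHat2 2.0.13 and Bowtie2 2.2.3, with SAMtools 0.1.19, and the authors deposited FPKM per gene from Cufflinks 2.2.1. The annotation and options of Cufflinks are not given in the sources used here. Since FPKM divide by transcript length and library size, no counts were available and no count model was run. Groups and replicate numbers came from the sample labels. Replicates are separate mice.

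log2(FPKM + 1) was tested for the 11703 genes averaging 1 FPKM or more, in R 4.3.3 with limma 3.58.1 (eBayes with trend; two-sided p, Benjamini-Hochberg). On simulated data with 200 changed genes among 11703, 69.5% were recovered with 7 false calls. The planted differences were larger than those of the higher members, and noise was drawn for each gene on its own. Recovery of differences as small as those of the members, or under variation shared between genes, was not tested. Tables and figures were made with Python 3.11.15, pandas 2.3.3, numpy 2.4.6 and matplotlib 3.10.9. The number of mapped reads was read from the spacing of the lowest FPKM, assuming 200-base fragments. Gene positions and transcript lengths (the median over coding transcripts) came from GENCODE M21 (GRCm38), which matched all 84 members, and promoters from RefSeq.

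The members and lists were chosen with earlier results of these data known. Named genes were up to 3 members per complex in each direction by smallest p, the Sdh genes, isoform sets, the c subunit genes, the most and least abundant member per complex, and up to 2 genes per direction of each further list. 1 gene that the rule selects is not reported here. Ndufa1, Ndufa2, Ndufa6, Ndufb3, Ndufb9, Uqcrb, Uqcrc2, Uqcrfs1, Uqcrq, Atp5a1, Atp5c1, Atp5f1, Atp5h, Cox7a2l, Atp5sl, 2010107E04Rik, Atpif1, Myc, Nrf1, Gabpa, Itga2, Ptprc, Cd3e and Lck were added after their values were seen. Alternatives were another pseudocount, other filters, scalings and eBayes settings, length centring, tissue scores as covariates, the replicate block and leaving out each library. Scores for colon alone and for neutrophils, the 2 subsets by colon transcript, centring on median levels per length bin and a loess on length were chosen after seeing the data.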

Additional observations from a re-analysis of the deposited data

How the results depend on the processing

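No member passed at an adjusted p under 0.05 under any of the 22 alternatives with a test, under which 0 to 5 of all genes did (5 without cytarabine 1). In the much-colon subset, whose control group is 1 library, 12 of all genes did. The 19 higher members at an unadjusted p under 0.05 became 11 (4 lower) with libraries centred on median levels per length bin (all genes 5.6% higher and 10.9% lower), 12 with the colon score (8.14% and 7.15%), 3 (4 lower) with the neutrophil score (7.65% and 4.99%) and 3 (1 lower) with colon and heart scores (2.54% and 2.26%). They became 11 to 34 when 1 library was left out (34 without cytarabine 1, 11 without cytarabine 2 or control 3, 12 without control 2), with 2 to 3 lower, where 5.08% to 17.3% of all genes were higher and 5.0% to 17.5% lower. The 20 members whose groups did not overlap became 24 to 46 when 1 library was left out, with fewer libraries to compare (46 without cytarabine 1, 45 without control 1). The share of all tested genes without overlap was not counted in these fits, so the rise is not read as a result about the members. Same-numbered libraries are different mice, and their deviations from the group means correlated at -0.709, -0.247 and -0.594. Transcripts of other tissues enter these deviations, so the correlations cannot tell whether same-numbered mice were handled together. With the replicate block 10 members were higher and 1 lower (all genes 4.09% and 4.4%). Of the 19 higher members, 18 stayed so after centring within length bins, 14 after the loess and 10 after centring on median levels per length bin. With the replicate block 10 stayed so, with the colon score 9, with the neutrophil score 2, and with colon and heart scores 1.

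Medians moved as follows. With level centring per length bin the members' median was 0.011 (all tested genes -0.048), and those of complexes I, II, III and V were -0.023, 0.040, -0.012 and 0.004. With the colon score it was 0.056, and 0.063 for complex V. With the neutrophil score it was -0.046, and -0.015, -0.045, -0.077, -0.118 and -0.055 for complexes I to V. With colon and heart scores it was 0.015, and 0.031, 0.082, 0.031, 0.024 and -0.029 for complexes I to V. In the little-colon subset it was 0.032, and 0.004, 0.025 and 0.084 for complexes I, II and IV, and in the much-colon subset 0.125 for complex I. Leaving out 1 library gave medians of 0.10 to 0.156 for all members, and 0.051 to 0.126, 0.092 to 0.179, 0.093 to 0.185, 0.186 to 0.371 and 0.081 to 0.140 for complexes I to V.

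Signs reversed for single genes: with the neutrophil score Sdhd (-0.043), Sdhb (-0.090), Cox7c (-0.054), Sdha (-0.047), Vdac3 (-0.080), Etfb (-0.232), Suclg1 (-0.034), Dlat (0.042) and Tfb2m (-0.008), with colon and heart scores Atp5o (-0.006), Slc25a4 (0.004), Idh3b (-0.019), Suclg1 (-0.068), Dlat (0.107) and Yy1 (-0.031), with the colon score Atp5d (0.012) and Sdha (-0.020), with level centring Sdha (-0.008), with the heart score Slc25a4 (0.044) and Slc25a3 (0.116), and with an equal FPKM sum Slc25a3 (0.013), which ranged from -0.067 to 0.093 when 1 library was left out. The causes of these moves were not tested.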
